A study of Mus musculus with 2 samples.

Results

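The carbonic anhydrase family was examined in the embryonic mouse liver through 10 genes, Car1, Car2, Car3, Car4, Car5a, Car8, Car9, Car12, Car13 and Car14. They were chosen by symbol, with earlier results of these data known, and matched through the GENCODE annotation to the gene identifiers of both deposited gene tables. All 10 were found, among 43346 mouse genes. The material was liver of C57BL/6J embryos at day 14, with males and females pooled, and polyadenylated RNA longer than 200 nucleotides was sequenced as stranded paired reads after depletion of ribosomal RNA. The series forms 1 group of 2 libraries, called replicate 1 and replicate 2, with no treatment, mutation or second age. Both carry the same donor entry, and the labels do not say whether the pools came from separate litters. The spread between them may therefore be technical or biological, and which it is was not tested. Markers of other tissues, such as striated muscle, differed between them, as given below.

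Carbonic anhydrases are zinc enzymes that interconvert carbon dioxide and water with bicarbonate and a proton. Red cells use them, together with the anion exchanger band 3, to carry carbon dioxide as bicarbonate, and the fetal liver is the organ in which red cells form at this stage. The family divides by place: soluble enzymes of the cytosol (Car1, Car2, Car3, Car13), an enzyme of the mitochondrial matrix (Car5a), enzymes held at the cell surface (Car4, Car9, Car12, Car14), and related proteins without catalytic activity, of which Car8 is one. Each active enzyme holds its zinc with 3 histidines.

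The coding sequence around the first pair of these histidines shows what the 9 catalytically active members share. Each line gives 30 coding bases, 5′ to 3′, from the GENCODE transcripts on GRCm38, and the capitals mark the codons aligned to the first and second zinc-binding histidine of Car2.
Car2: atccagtttCACtttCACtggggctcatct
Car3: cgccaattcCATcttCACtggggctcctct
Car1: actcagttcCATtttCACtggggcaactca
Car13: cggcagttcCATttgCACtgggggtcagca
Car5a: aagcagtttCATttcCACtggggagcaaca
Car4: gtacagttgCACctgCACtggtcaaatggg
Car9: ttgcagttgCATctaCACtggggaacttca
Car12: gagcagctgCACttgCACtgggggaaccgc
Car14: gcccagctcCACctgCACtggggtcagaga
Both marked codons, and the codon aligned to the third histidine further along, were histidine codons, CAC or CAT, in all 9 of these members. In Car2 the stretch lies at chr3:14895060-14895089 on the plus strand, within 1 exon. Over codons aligned to Car2, Car3 was identical at 63.5% of bases, Car1 at 62.3% and Car13 at 60.9%. The mitochondrial Car5a was identical to Car2 at 55.3% of bases. The surface enzymes shared fewest bases with Car2, from 46.3% in Car4 to 49.1% in Car12.

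Car2 dominated the family. It stood at 1177 TPM in replicate 1, against 1360.3 TPM in replicate 2, where TPM is the deposited level per length, scaled to one total in every library. Its mean of 1269 ± 129 TPM (SD, n = 2) ranked 57th among the mouse genes. The next member, Car3, had 31.1 TPM in replicate 1 and 30.6 TPM in replicate 2. Car2 thus exceeded Car3 37.8-fold in replicate 1 and 44.5-fold in replicate 2 on the TPM scale. The members summed to 1231 TPM in replicate 1, against 1419 TPM in replicate 2, and Car2 held 95.6% of that sum in replicate 1 and 95.9% in replicate 2. Read by expected counts, the estimated fragments per gene, Car2 took 0.159% of counts on mouse genes in replicate 1 (95% exact interval 0.158 to 0.159) and 0.178% in replicate 2 (0.178 to 0.179), intervals that cover counting error only. These shares rest on 97174777 counts in replicate 1 and 149348514 counts in replicate 2.

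**Figure D1:**
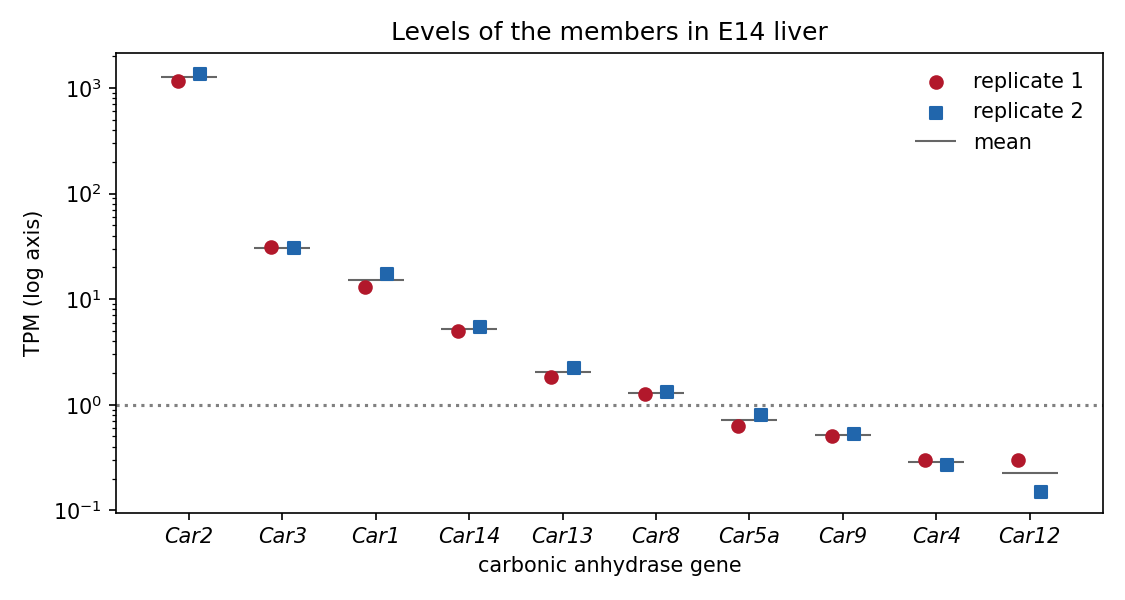
Level of each member in TPM on a log axis, with a point per library (circles replicate 1, squares replicate 2), a bar at the mean and a dotted line at 1 TPM. Car2 lies at 1177 and 1360.3 TPM, Car3, Car1, Car14, Car13 and Car8 lie between 1.25 and 31.1 TPM, and Car5a, Car9, Car4 and Car12 lie below 1 TPM in both.

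Of the 10 members, 6 reached at least 1 TPM in both libraries, against 26.6% of all mouse genes in the tables. That background, also used for the median below, includes pseudogenes and noncoding genes, whereas the members are protein-coding. By mean TPM the order was Car2, Car3, Car1, Car14, Car13, Car8, Car5a, Car9, Car4 and Car12. The libraries gave this same order except for the last pair. Car4 and Car12 overlapped and stood at 0.30 TPM each in replicate 1, against 0.27 TPM and 0.15 TPM in replicate 2. Between every other pair of neighbours the ranges of the libraries were apart, by as little as 1.39-fold between the means of Car5a and Car9 and as much as 41.1-fold between those of Car2 and Car3. The median of the members was 1.65 TPM, beside 0.0050 TPM over all mouse genes. Since the members were chosen with earlier results of these data known, they are not an independent set in these contrasts. Of the 6 carbonic anhydrase genes left out, 1 reached 1 TPM in both libraries, and their median was 0.165 TPM.

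Among the cytosolic enzymes, Car1, the low-activity isozyme of red cells, was far below Car2. Car1 had 13.0 TPM in replicate 1 and 17.4 TPM in replicate 2, so that Car2 exceeded it 90.6-fold in replicate 1 and 78.4-fold in replicate 2. Car13, a widely expressed cytosolic enzyme, had 1.83 TPM in replicate 1 and 2.21 TPM in replicate 2. Car3, which is known for abundant expression in skeletal muscle, fat and adult liver and for weak hydratase activity, was the second highest member at 30.8 ± 0.410 TPM (SD, n = 2). The 4 cytosolic genes lie next to each other on chromosome 3 of GRCm38. Car13 is at 14641727 to 14663002 (plus strand), Car1 at 14766216 to 14808368 (minus strand), Car3 at 14863512 to 14872523 (plus strand) and Car2 at 14886273 to 14900770 (plus strand). The neighbours Car3 and Car2 on the same strand were thus the highest pair, and Car13 at the other end was the lowest of the 4.

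Car5a, the mitochondrial enzyme that provides bicarbonate to carboxylating enzymes of the liver, was low. It had 0.63 TPM in replicate 1 and 0.80 TPM in replicate 2, from 81 and 148 counts (chromosome 8, 121916126 to 121944904). Its whole span lies opposite Gm20388, a protein-coding annotation that had 7.17 TPM in replicate 1 and 7.83 TPM in replicate 2, and whether the counting used the strand is not given in the sources used here. Of 8 listed enzymes that use bicarbonate, 7 were matched and 5 reached 1 TPM in both libraries. Pccb and Pcca, the subunits of propionyl-CoA carboxylase, led with 15.2 and 9.68 TPM in replicate 1 and 15.2 and 9.12 TPM in replicate 2. Mccc2, a subunit of methylcrotonyl-CoA carboxylase, followed with 5.80 TPM in replicate 1 and 5.42 TPM in replicate 2. Cps1, which begins the urea cycle and draws on mitochondrial bicarbonate, had 0.830 TPM in replicate 1 and 0.780 TPM in replicate 2, and the lowest of the list was the acetyl-CoA carboxylase Acacb, at 0.13 and 0.20 TPM.

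At the cell surface, Car14, a transmembrane enzyme, was the highest. Car14 had 4.99 TPM in replicate 1 and 5.40 TPM in replicate 2 (chromosome 3, 95897768 to 95904691, minus strand). Its end overlaps 521 bases of Aph1a on the other strand, a gene at 27.2 TPM in replicate 1, against 34.3 TPM in replicate 2. Car9, a transmembrane enzyme known as a target of the hypoxia-inducible factors, had 0.50 TPM in replicate 1 and 0.53 TPM in replicate 2, and 1782 of its bases lie opposite the antisense gene Gm12454. Car4, anchored in the membrane by a lipid, had 35 counts in replicate 1 and 41 counts in replicate 2. Car12, a transmembrane enzyme of epithelia, had 123 counts in replicate 1 and 82 counts in replicate 2, the one member with more counts in the smaller library.

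All 15 listed genes of the hypoxia response had a higher TPM than Car9 in both libraries. Of 15 listed, 14 reached 1 TPM in both libraries. Ldha, lactate dehydrogenase A, had 330 TPM in replicate 1, against 366 TPM in replicate 2, the glucose transporter Slc2a1 had 156 and 196 TPM, and the glycolytic enzyme Pgk1 had 121 and 142 TPM. Egln3, an oxygen-sensing hydroxylase, was the lowest of the list at 0.850 TPM in replicate 1, against 1.15 TPM in replicate 2.

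Car8, whose protein has no catalytic activity and is known to bind an inositol trisphosphate receptor in the brain, had 1.25 TPM in replicate 1 and 1.31 TPM in replicate 2 (chromosome 4, 8143362 to 8239041). Of the 3 receptor genes, Itpr1 was the highest, at 1.52 TPM in replicate 1, against 1.88 TPM in replicate 2. Itpr3 had 0.710 and 0.920 TPM, and Itpr2 had 0.49 and 0.36 TPM. Tubb3 led the 5 brain markers (replicate 1 0.870 TPM, replicate 2 0.580 TPM) and made up most of their sum. Snap25 came next (0.110 and 0.0300 TPM), and Calb1, Pcp2 and Neurod1 were at or below 0.0100 TPM in both libraries. The 5 brain markers summed to 1.00 TPM in replicate 1, against 0.620 TPM in replicate 2. The part of other cells in the Car8 level was not tested.

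The 6 carbonic anhydrase genes that are not members were low apart from Car7, a cytosolic enzyme best known from brain and muscle. Car7 had 4.62 TPM in replicate 1 and 3.62 TPM in replicate 2. Car15, a membrane-anchored enzyme, had 0.340 and 0.670 TPM from 45.3 and 129 counts, with deposited posterior SDs of 2.07 and 3.90 counts. Car11, which lacks activity, had 0.350 and 0.130 TPM, and Car5b, the second mitochondrial enzyme, had 0.10 and 0.080 TPM. The secreted enzyme Car6 had 4 counts in replicate 1 and 1 count in replicate 2, and the inactive Car10 had 1 and 3 counts. Together these 6 genes summed to 5.44 TPM in replicate 1, against 4.51 TPM in replicate 2.

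Genes of bicarbonate and acid transport ranged widely in level. Of 26 listed, 11 reached 1 TPM in both libraries, beside 26.6% of all mouse genes, noncoding ones included. The median of the list was 1.00 TPM. Bsg, the chaperone of lactate carriers, had 489 TPM in replicate 1 and 568.5 TPM in replicate 2. Slc4a1, the band 3 exchanger of the red cell, had 451 TPM in replicate 1 and 531 TPM in replicate 2, and the monocarboxylate carrier Slc16a1 had 33.8 and 43.0 TPM. At the low end Slc4a10, Slc26a9 and Slc9a3 were at 0 TPM in both libraries. Among the 5 listed gas channel and Rh family genes, Rhd had 189 and 247 TPM. Rhag, an ammonia channel, had 127 and 157 TPM, and the water channel Aqp1 had 44.6 and 52.6 TPM. Rhcg, the lowest of these 5, had 0.0600 TPM in replicate 1 and 0.0300 TPM in replicate 2. Car2 therefore stood above every one of these transport, gas channel and Rh family genes in both libraries on the TPM scale.

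The labelled tissue was checked by markers. All 8 erythroid markers reached 1 TPM in both libraries, led by the globins Hba-a2 (202668 TPM in replicate 1, 179965 TPM in replicate 2) and Hbb-bs (145778 and 137870 TPM) and by Alas2 (847 and 941 TPM), with Gata1 lowest (91.9 and 111 TPM). Of 8 hepatocyte markers, 7 did so, led by Alb (9112 and 10441 TPM), Afp (6698 and 7790 TPM) and Apoa2 (2413 and 2617 TPM). Markers of endothelium reached 1 TPM in 6 of 6 genes and markers of macrophages in 5 of 6. In bulk tissue, fewer cells of a type and less RNA per cell cannot be told apart.

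The libraries were then compared for each gene with an exact binomial test (two-sided, conditional on the total) of rounded expected counts, scaled by TMM and adjusted by Benjamini-Hochberg over 18572 genes. It compares these 2 libraries and covers counting error only, since there is 1 library on each side. All 10 members had the 10 counts in total that the test required. An adjusted p under 0.05 was reached by 4 of 10 members, beside 40.0% of all genes tested, and a difference of at least 2-fold in addition by 1 of 10 members, beside 5.71% of all genes tested. The share of members past the threshold was thus the share of all genes. The median size of the log2 ratio was 0.15 for the members and 0.14 for all genes tested.

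Car12 was the member with the 2-fold difference. Its counts, scaled, were higher in replicate 1 by a log2 ratio of 1.26 (95% counting interval 0.84 to 1.68, adjusted p = 7.91e-09 by the exact binomial test with Benjamini-Hochberg adjustment). Car3 was slightly higher in replicate 1, by 0.16 (0.11 to 0.21, exact adjusted p = 2.05e-09). Car1 was lower in replicate 1, with a log2 ratio of -0.32 (-0.41 to -0.23, exact adjusted p = 2.34e-11), and Car2 was lower by a smaller step, -0.12 (-0.13 to -0.11, exact adjusted p = 7.16e-145). The other 6 members did not pass the threshold, with log2 ratios between -0.20 in Car5a and 0.44 in Car4 and intervals that all included 0. Of these, Car14, Car8 and Car9 had small positive ratios after TMM scaling (0.013, 0.076 and 0.071) and lower TPM in replicate 1 than in replicate 2. Unscaled TPM ran lower in replicate 1 for genes in general, with a median log2 ratio of -0.15 over genes with at least 100 counts, against -0.011 after TMM scaling. When the spread was instead estimated from the same pair with edgeR, which gave a coefficient of variation of 0.190 between the libraries, the negative binomial version of the exact test called 0 of 10 members and 469 of 18572 genes. Without adjustment 1 member, Car12, had a p under 0.05 in that test (exact p = 0.00517, adjusted p = 0.157).

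**Figure D2:**
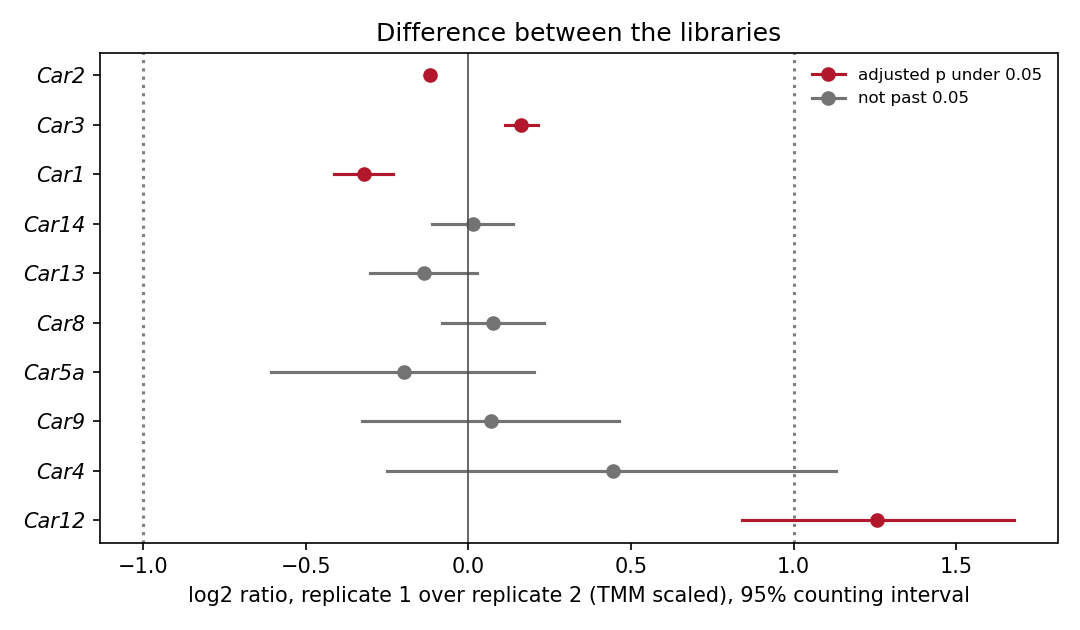
Log2 ratio of each member, replicate 1 over replicate 2, after TMM scaling, with 95% counting intervals and red for an adjusted p under 0.05. Car12 at 1.26 is the one member beyond the dotted lines at 2-fold, Car1 and Car2 lie left of 0 and Car3 right of it.

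Markers of other tissues moved between the libraries. All 8 striated muscle markers were called at least 2-fold higher in replicate 1, with a median log2 ratio of 5.31, beside 880 of all 18572 genes tested. The muscle markers summed to 76.5 TPM in replicate 1, against 7.30 TPM in replicate 2. Actc1, a muscle actin, had 30.6 TPM in replicate 1 and 1.48 TPM in replicate 2, Acta1 had 17.3 and 1.63 TPM, and Tnnt1, a slow muscle troponin, 11.9 and 3.79 TPM. The other 5, Myl1, Myh3, Ckm, Myh8 and Ttn, had between 0.290 and 5.39 TPM in replicate 1 and between 0.0100 and 0.160 TPM in replicate 2. Car3, a muscle gene as well, differed far less than any of them, at 31.1 TPM in replicate 1, against 30.6 TPM in replicate 2. Among adipose markers Fabp4 had 15.1 TPM in replicate 1, against 14.9 TPM in replicate 2. The defining Plin1 and Lep were at 0 TPM in both libraries, Adipoq had 0 TPM in replicate 1 and 0.080 TPM in replicate 2, and Cidec 0.010 and 0.020 TPM.

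Several epithelial and mesothelial markers were higher in replicate 1, as Car12 was, and so were most genes with a 2-fold call. Over all genes tested 880 were at least 2-fold higher in replicate 1, against 180 in replicate 2. Of all genes tested, 40.0% were called and 5.71% were called with at least 2-fold. Calls rest on TMM-scaled counts, which can differ from the TPM printed beside them. Of 6 cholangiocyte markers, 5 were called and all 5 were higher in replicate 1, with Krt19 (4.2 TPM in replicate 1, 1.28 TPM in replicate 2) and Epcam (0.63 and 0.30 TPM) at least 2-fold higher, and the list summed to 9.53 TPM in replicate 1, against 5.30 TPM in replicate 2. Spp1, the highest of the list by mean, had 3.38 and 2.43 TPM. Krt7, one of the 5 by scaled counts with a log2 ratio of 0.43, had 1.01 and 1.06 TPM, and Cftr, the lowest, 0.0100 and 0.0200 TPM. Markers of stomach, pancreas and gut summed to 3.22 TPM in replicate 1, against 1.15 TPM in replicate 2. Of these the pancreatic genes Ctrb1 (1.58 and 0.0400 TPM) and Cpa1 (1.23 and 0.760 TPM) were at least 2-fold higher in replicate 1 by scaled counts. The log2 ratio of Cpa1 was 1.51 by scaled counts and 0.69 by TPM. Vil1 had 0.330 and 0.310 TPM, and Tff1 and Cdx2 were at 0 TPM. Of 8 mesothelial and stellate markers, 6 were higher in replicate 1, and Col1a2 (26.0 and 11.6 TPM), Des (2.22 and 1.07 TPM) and Msln (0.80 and 0.42 TPM) were so at least 2-fold by scaled counts. The log2 ratio of Msln was 1.05 by scaled counts and 0.93 by TPM. Reln, which was lower, had 28.9 and 35.3 TPM, Dcn 32.7 and 28.5 TPM, and Lrrn4, the lowest of that list, 0.39 and 0.36 TPM. The part of these tissues in the Car12 and Car3 values was not tested.

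Car2 and Car1 were lower in replicate 1 together with many red cell and hepatocyte markers. Over all genes tested 3638 were called higher in replicate 1 and 3784 lower, which together are 40.0% of genes tested. The test covers counting error only, so small ratios pass it where counts are high. Of the 8 erythroid markers, 6 were lower in replicate 1 by the same test, among them Slc4a1 (log2 ratio -0.10) and Gata1 (-0.12), and Hba-a2 (0.32) and Hbb-bs (0.23) were higher. Of the 8 hepatocyte markers, 6 were also lower, among them Trf (-0.12), Hnf4a (-0.12) and Afp (-0.08), and 2 were higher, of which Apoa2 had the lower TPM in replicate 1. Of the 5 gas channel and Rh family genes, 3 were lower in replicate 1, Rhd (-0.25), Rhag (-0.17) and Aqp1 (-0.10), and none was higher. Of the 26 transport genes 5 were lower and 1 was higher, and of the 15 hypoxia genes 5 were lower and 1 was higher, Vegfa, which had the lower TPM in replicate 1. The share of genes called was thus below that of all genes tested in the transport list and the same in the hypoxia list. It was above that share in the erythroid, hepatocyte, gas channel and Rh family, bicarbonate-using enzyme, macrophage and endothelial lists. Of the 7 bicarbonate-using enzymes 1 was lower and 5 were higher by scaled counts, and the direction turned in TPM for Pccb, Pcca and Acaca. Macrophage genes were lower in 5 of 6, with Lyz2 at 72.5 TPM in replicate 1, against 99.9 TPM in replicate 2, C1qb at 48.3 and 62.5 TPM, Cd5l at 43.3 and 58.7 TPM, and Vsig4, the lowest, at 0.210 and 0.150 TPM. Endothelial genes were split, 1 higher and 2 lower, with Lyve1 (12.6 and 14.7 TPM), Stab2 (9.18 and 11.1 TPM) and Cdh5 (9.35 and 9.31 TPM) highest and Clec4g (2.80 and 3.25 TPM) lowest. Among genes outside the members but within the family, Car11 was at least 2-fold higher in replicate 1 (log2 ratio 1.42, interval 0.62 to 2.25, exact adjusted p = 0.00121), on 37 counts against 22. Car7 was higher by 0.48 (0.34 to 0.63), and Car15 was lower with a log2 ratio of -0.85 (-1.37 to -0.35). In the brain list Snap25 (0.110 and 0.0300 TPM) was at least 2-fold higher in replicate 1 and Tubb3 had 0.870 and 0.580 TPM.

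Transcripts showed which start and which exons each gene used. Car1 has a near and a distant first exon in the annotation, of which the distant one is spliced over a long intron. The transcript with the distant first exon, Car1-203, held 91.2% of the gene's transcript TPM in replicate 1 and 94.4% in replicate 2. Car1-202, which shares that start and skips an exon, held 8.78% and 5.13%. Car1-201, which begins at the near start, had 0 counts in replicate 1 and 15.6 counts in replicate 2, or 0.519% of TPM there. The distant exon lies at 14808302 to 14808365 and the near one at 14778348 to 14778459 of chromosome 3 (GRCm38, minus strand), and the intron between the distant exon and the next is 29893 bases long.

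The deposited junction list, made on the older build mm9, counts reads across each splice of both replicates together, and its R1 and R2 columns are not tied to a library by name. In it the Car1 intron of 29893 bases, from 14778409 to 14808301, had 1337 reads, 497 in R1 and 840 in R2. It was the highest junction of the gene, and the list flags it as unannotated. The gene as deposited on mm9 spans 14766217 to 14778459, so this intron reaches past it. The GRCm38 annotation does hold an intron of this length, in Car1-203 and Car1-202. The 6 annotated junctions between successive exons had 340 to 896 reads, and the exon-skipping one of Car1-202 had 18. A further unannotated junction over 29121 bases had 16 reads. Annotated junctions held 71.1% of Car1 junction reads, against 88.1% in Car12 and 99.3% in Car2, the lowest and the highest of the other 9 members. No other member had an unannotated junction above 23.7% of its median annotated junction, where the Car1 one stood at 258%.

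**Figure D3:**
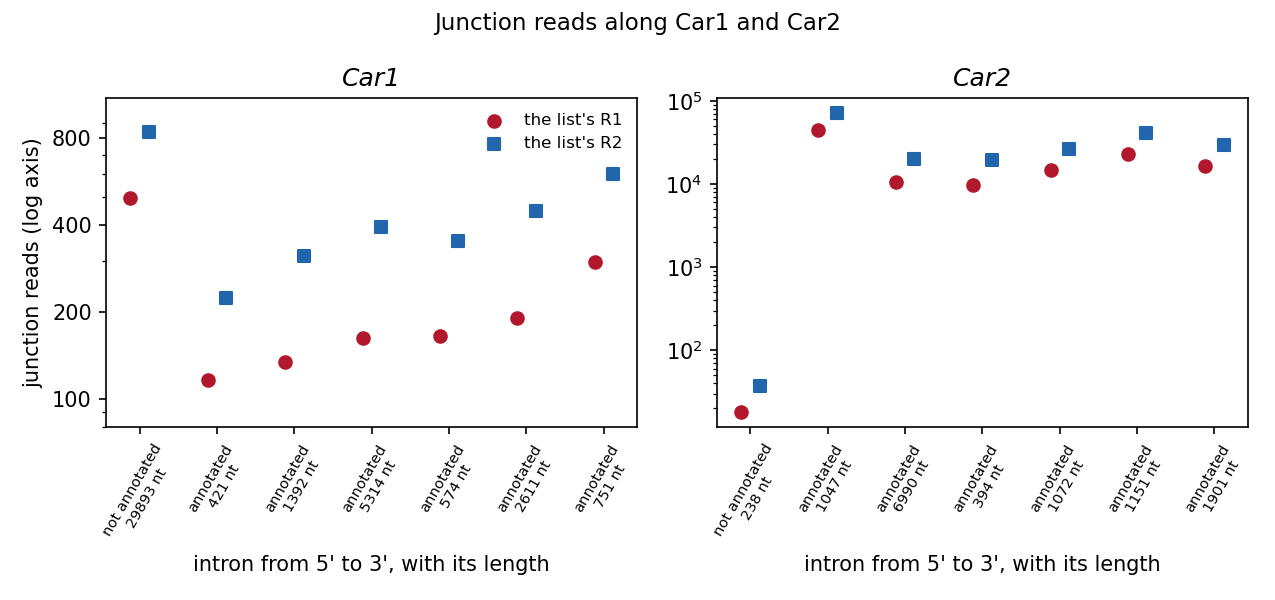
Reads across introns of Car1 and Car2 in 5′ to 3′ order on log axes, circles for R1 and squares for R2 of the junction list, for annotated junctions over 20 reads and, at the left of each panel, 1 unannotated junction. In Car1 the unannotated first junction is the highest, and in Car2 it lies far below all 6 annotated ones.

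In Car2 the assigned transcripts and the junction reads differed. Its short transcript Car2-202 was assigned 42.5% of the gene's transcript TPM in replicate 1 and 39.4% in replicate 2, and the full-length Car2-201 56.98% and 60.19%. By counts Car2-202 had 22972 of the gene's 154145 in replicate 1 and 35256 of 266560 in replicate 2, and its effective length of 370 bases, against 1571 for Car2-201, raises its TPM. The junction that belongs to Car2-202 alone, joining its own first exon over an intron of 238 bases, had 55 reads in the junction list. The next junction downstream, which both transcripts share, had 116531, and the other 5 annotated junctions had 28912 to 63490. With all counts placed on the full-length transcript, an alternative chosen after seeing the data, Car2 would stand at 791 TPM in replicate 1, against 947 TPM in replicate 2, lower than the deposited values by 1.49-fold in replicate 1 and 1.44-fold in replicate 2. Its place as the highest member does not depend on this, since Car3 had 31.1 and 30.6 TPM.

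**Figure D4:**
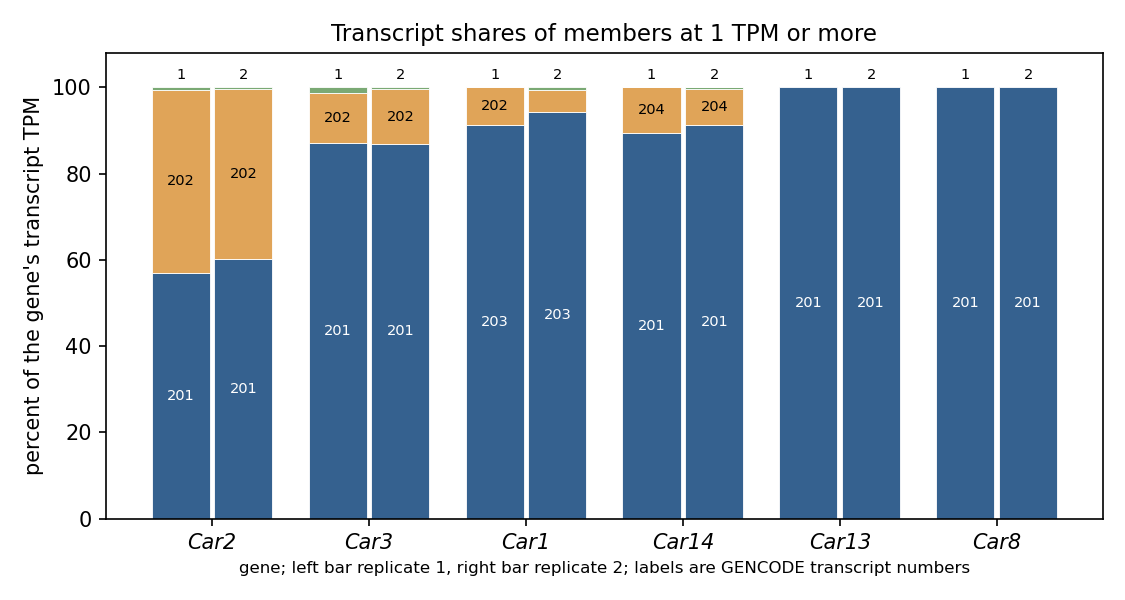
Percent of each gene's transcript TPM held by each GENCODE transcript, as stacked bars with replicate 1 left and replicate 2 right, for the 6 members at 1 TPM or more. Car2 is split between transcripts 201 and 202, and the other 5 genes have a main transcript above 85%.

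In Car3 and Car14 a spliced coding transcript led. Car3-201 held 87.1% of Car3 TPM in replicate 1 and 86.9% in replicate 2, and the intron-retaining Car3-202 held 11.5% and 12.6%. Car14-201 held 89.4% and 91.3%, with the intron-retaining Car14-204 at 10.6% and 8.35%. Car13 and Car8 had 1 transcript each in the tables. Car12 was split mainly between 2 coding transcripts, with effective lengths in replicate 1 of 3499 bases for Car12-201 and 3422 for Car12-202. Car12-201 was assigned 66.9 counts in replicate 1 and 0 in replicate 2, and Car12-202 52.0 counts in replicate 1 and 74.4 counts in replicate 2. The 11 annotated Car12 junctions had 2 to 13 reads each, too few to set these shares against.

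By reads on annotated junctions the order of the members was that of mean TPM, except that Car8 came before Car13 and Car12 before Car4. Annotated junctions of Car2 held 326927 reads, those of Car3 10091, of Car1 3415, of Car14 2195, of Car8 1122, of Car13 697 and of Car5a 207. Those of Car9 held 168, of Car12 74 and of Car4 70. In the older gene table on mm9, normalised separately as RPKM (reads per length and depth) for 2 replicates that it does not name, Car2 was again highest at 149 and 177 RPKM. Car3 had 4.26 and 6.19 RPKM and Car1 1.58 and 1.54 RPKM. The first 4 members kept their order, while Car8 and Car13, Car9 and Car5a, and Car12 and Car4 changed places within each pair. Car12 had 0.0408 and 0.141 RPKM there, the widest gap of the 10 between the replicates of that table when taken as a ratio.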

How the data were processed

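Polyadenylated RNA of 2 embryonic liver libraries, 1 group per the labels, was measured. The expected count, TPM and FPKM values per gene and transcript were deposited by the authors. Per the labels and the notes deposited beside them, they rest on mm10 with GENCODE annotation, and neither an aligner nor a quantifier is given in the sources used here. A score, named per the file headers as a posterior SD for the count, was 0 for every member. The junction read counts and the contig signal were deposited on mm9 for both replicates together, and the mm9 RPKM for replicates that are not named.

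Libraries held 100477392 and 154601605 expected counts. Counts on spike-ins, phiX174 and features without a mouse gene identifier (3.29% and 3.40%) were set apart. Of 43346 genes, 42462 matched GENCODE M21 (GRCm38). Of 131 list entries, 1 had no match under its symbol and carries no value. The members and lists were chosen with earlier results of these data known. All 10 members are named, and of each list the 3 highest, the lowest and those past the 2-fold call.

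The tests were an exact conditional binomial test on rounded counts with edgeR 4.0.16 TMM sizes, for genes with at least 10 counts, and a negative binomial exact test. The binomial test was tried on simulated counts with counting error alone, so that trial does not cover further spread between libraries. Alternatives were DESeq2 1.42.0 size factors, library totals, filters, pseudocounts, other units and each replicate left out. Coding sequences were aligned codon by codon with Biopython 1.88 after translation. Protein sequences were not used here. The coding stretch of 1 member is not reported here. Junctions were given to a gene when they lay on its strand with at least 1 end inside it. Scripts ran under Python 3.11.15 with scipy 1.17.1, pandas 2.3.3, numpy 2.4.6 and matplotlib 3.10.9, and under R 4.3.3.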

Additional observations from a re-analysis of the deposited data

How the results depend on the processing

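The summed level of the family was 1325 TPM, and 1584 as FPKM, 172 as mm9 RPKM and 925 with all Car2 counts on the full-length transcript. The last was chosen after seeing the data. The share of Car2, 95.7%, became 94.8% by mm9 RPKM, 94.7% by expected counts and 93.9% with the full-length transcript. With either replicate left out the sum ranged from 1231 to 1419 TPM, the share from 95.6% to 95.9%, and 6 members still reached 1 TPM. The 4 members that differed between the libraries, and the 1 that did so at least 2-fold, became 0 and 0 under the negative binomial exact test, which takes its error from the same pair, and these counts did not move with other scaling or filters. Log2 ratios turned negative for Car14 with library totals (-0.038), for Car14, Car8 and Car9 as ratios of TPM with a pseudocount of 0.1 (-0.11, -0.063 and -0.070) and with one of 1 (-0.096, -0.038 and -0.029), and the others kept their direction. Of 39 ratios recomputed with the exact binomial test, 38 kept direction and call. That count leaves out the negative binomial test, and a change of filter leaves a ratio unchanged by construction. The 20 TPM ratios have no test, and among them that of Car12 was 0.68 and 0.18, against 1.26 by scaled counts. Car4 gave no value with a minimum of 100 counts. The causes were not tested, beyond what the settings change by construction.

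No paired analysis was possible because the series holds a single group of 2 libraries. Ratios of members with few counts, Car4 above all, are limited by depth.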

Other observations

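The contig list, deposited on mm9 as stretches of continuous signal with a level for both replicates together, gave Car2 signal on its own strand beyond the annotated gene. Over Car2 there were 2 contigs, on chromosome 3 from 14886015 to 14893419 at a level of 90.2 and from 14893624 to 14906529 at a level of 101. The second ran 5760 bases past the annotated end of the gene at 14900769. Together they cover introns as well as exons, 20311 bases in all. Car3 had 1 contig on its strand, from 14862932 to 14872539 at a level of 6.56, that ended 188 bases past the gene. Car1 had 15 contigs on its strand, the highest at a level of 15. For Car14 a contig on the other strand, which passes the end of the gene by 757 bases, had a level of 2.20, beside 3.22 for the highest contig on the gene's own strand. For Car9 the highest contig on the other strand had a level of 0.537, beside 0.856 on its own.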
